A study of Mus musculus with 18 samples.

Results

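The 5 genes described here, Pgk2, Cetn1, Pdha2, Utp14b and Cstf2t, are autosomal retrogenes, each copied through a messenger RNA from a gene on the X chromosome. They were taken by symbol from the named probe sets of a mouse expression array, and all 5 of 5 symbols were found among 15780 named genes. The parent genes are Pgk1, Cetn2, Pdha1, Utp14a and Cstf2, and 4 of 5 parents have a named probe set. Pgk1, the parent of Pgk2, has no named probe set in the table and is not analysed here. The series asks what follows in meiosis when more autosomal chromatin is left unsynapsed, as its title puts the question.

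The 18 arrays fall into 7 groups of male mice. Spermatocytes were sorted by fluorescence from testes of males aged 2 months. The sorted groups are pre-mid-pachytene cells of Ttf+/+T43H males (n = 3), of t12+/+T43 males (n = 3) and of C57BL/10J males (n = 2, the earlier C57BL/10J cells below), with C57BL/10J cells of mid-late pachytene besides (n = 2, the later C57BL/10J cells). Whole testes without the outer coat came from males aged 15 days, from 3 samples labelled Ttf+/+T43H, 3 labelled t12+/+T43 and 2 of the C57BL/6J strain. The labels do not say whether replicates are separate animals, so p-values measure the spread between these samples. Both carrier lines are on the C57BL/10J background and carry a T43 translocation, which exchanges parts of chromosomes 16 and 17, beside a variant chromosome 17 named Ttf or t12. No group has the translocation or either variant alone. The testis controls are C57BL/6J, so strain and genotype cannot be told apart there. Pgk2 lies on chromosome 17, and for it a difference of allele under the probes and a difference of expression cannot be told apart between carriers and controls. The same limit holds for Tcp11 and Wdr46, named below, which lie on chromosome 17 too. In such bulk RNA, fewer cells of a type and less RNA per cell cannot be told apart either.

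In male meiosis the X and Y chromosomes find no full partner and are packed into the sex body, and their genes are shut down during pachytene, a process called meiotic sex chromosome inactivation. Many X genes encode enzymes and RNA factors that every cell needs, and intron-poor autosomal copies of them are read in spermatocytes and spermatids when the X copy is silent. Pgk2 encodes the germ cell form of phosphoglycerate kinase, a glycolytic enzyme. Pdha2 encodes the germ cell form of the E1 alpha subunit of pyruvate dehydrogenase, which links glycolysis to the mitochondrial citric acid cycle. Cetn1 encodes a centrin, a calcium-binding protein of centrioles and basal bodies. Utp14b encodes a component of the small subunit processome, which makes the small ribosomal subunit, and Cstf2t encodes the RNA-binding subunit of the cleavage stimulation factor that places messenger RNA ends.

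On GRCm38.p6, Pgk2 spans chr17:40207018-40208609, Pdha2 chr3:141210004-141212355, Utp14b chr1:78657825-78667601 and Cstf2t chr19:31082841-31086592. Utp14b lies inside Acsl3 (chr1:78657825-78707743), with which it shares its annotated first base, and Cstf2t lies inside Prkg1 (chr19:30564487-31765268). To show how the sequences before these genes differ, the windows around their start sites are given, from 250 bases before to 50 bases after a transcript start, as RefSeq has them for that build. The start used for Utp14b lies inside the gene, downstream of its first annotated base, which the window does not hold. A window was given for 4 of 5 members (not Cetn1) and for all 5 parents. Capitals mark matches, on either strand, to the letters TGACGTCA (cAMP response element), TGACG (the core that the full element contains), TAACNG (MYB), GGGCGG (GC box), CCAAT (box named by its letters) and TATAAA (the box of core promoters).
Pgk2, chr17:40208560-40208859, minus strand: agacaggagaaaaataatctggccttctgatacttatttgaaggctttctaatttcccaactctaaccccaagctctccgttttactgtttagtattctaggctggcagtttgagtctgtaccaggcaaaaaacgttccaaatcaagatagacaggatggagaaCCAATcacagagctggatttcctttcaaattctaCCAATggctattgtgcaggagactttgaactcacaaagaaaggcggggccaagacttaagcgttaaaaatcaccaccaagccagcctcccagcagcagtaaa
Pdha2, chr3:141212306-141212605, minus strand: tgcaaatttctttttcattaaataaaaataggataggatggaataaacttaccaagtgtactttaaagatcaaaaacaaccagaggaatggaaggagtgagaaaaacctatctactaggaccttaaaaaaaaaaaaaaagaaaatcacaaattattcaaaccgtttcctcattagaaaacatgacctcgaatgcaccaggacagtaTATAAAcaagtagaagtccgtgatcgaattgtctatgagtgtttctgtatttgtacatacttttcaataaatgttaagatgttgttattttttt
Utp14b, chr1:78658190-78658489, plus strand: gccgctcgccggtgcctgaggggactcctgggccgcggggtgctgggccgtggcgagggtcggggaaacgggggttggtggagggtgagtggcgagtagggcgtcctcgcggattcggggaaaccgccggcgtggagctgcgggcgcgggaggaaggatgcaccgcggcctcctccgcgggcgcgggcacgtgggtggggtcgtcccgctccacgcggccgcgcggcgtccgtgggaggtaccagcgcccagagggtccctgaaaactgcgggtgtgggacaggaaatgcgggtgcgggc
Cstf2t, chr19:31082591-31082890, plus strand: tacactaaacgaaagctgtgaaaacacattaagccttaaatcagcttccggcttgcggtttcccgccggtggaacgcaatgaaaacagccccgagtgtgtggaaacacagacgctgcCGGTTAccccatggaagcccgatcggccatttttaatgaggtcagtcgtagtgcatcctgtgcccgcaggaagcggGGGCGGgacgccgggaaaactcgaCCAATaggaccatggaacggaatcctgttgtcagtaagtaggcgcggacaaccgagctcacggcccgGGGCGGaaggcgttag

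The windows differ in composition. Bases G and C make up 43% of the Pgk2 window, 29.7% of Pdha2, 75% of Utp14b and 56.7% of Cstf2t, against a median of 52.7% over 32851 windows of 27025 genes. The Pdha2 window is poorer in G and C than nearly all others (0.81% of windows are lower), and that of Utp14b is richer than 96.1% of them. Pgk2 holds a CCAAT box 86 bases before its start and another 52 bases before it, and Pdha2 holds TATAAA 44 bases before its start. Cstf2t holds a MYB match 133 bases, a GC box 57 bases and a CCAAT box 33 bases upstream, and another GC box 35 bases downstream. No searched letters occur in the Utp14b window. Among all windows, TGACGTCA occurs in 1.79%, TGACG in 20.8%, TAACNG in 23.3%, GGGCGG in 35.7%, CCAAT in 37.4% and TATAAA in 13.6%. TGACG is in none of the 4 retrogene windows and in those of the parents Cetn2, Pdha1, Utp14a and Cstf2. These are matches of letters, not binding sites.

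Values are the authors' log2 GCRMA values, and a value near or below 4 carries little signal over background. Replicate arrays correlated across genes at r of 0.930 to 0.993 (sorted) and 0.995 to 0.998 (testes), where genes are not independent replicates, and no pair of arrays held the same values. Array medians over named genes ran from 4.55 to 5.72 and were lowest in the mid-late-pachytene cells. One sorted array of each carrier line differed from its group in the level of X genes minus autosomes. It averaged -0.17 on replicate 2 of Ttf+/+T43H and -0.08 on replicate 3 of t12+/+T43, against -1.18 to -0.66 on their companions. By this measure alone, both are said below to stand apart. Across genes, Ttf+/+T43H replicate 2 was the least like its companions (r of 0.952 and 0.930, against 0.990 between replicates 1 and 3). In t12+/+T43 the least like its companions was replicate 2 (r of 0.963 and 0.953, against 0.986 between replicates 1 and 3). Fits without both arrays that stood apart keep that t12+/+T43 array. The log2 difference between 3' and 5' Gapdh probes is a sign of RNA and labelling quality. It was 3.26 to 3.98 on the carriers' sorted arrays, 2.86 to 2.93 in the earlier and 2.51 to 3.39 in the later C57BL/10J cells. On testis arrays it was far lower, at -0.12 to 0.14, and the same difference for actin was 1.11 to 1.37 there. Comparisons of sorted cells with testes cross this gap. In sorted cells the actin difference was 3.06 to 4.41 on the carriers' arrays. It was 2.49 to 2.51 in the earlier and 3.38 to 3.51 in the later C57BL/10J cells, without overlap between both stages. Markers of 12 spermatid genes, summed and put on the log2 scale, reached 15.47 to 16.02 in the earlier C57BL/10J cells, 13.85 to 14.76 in Ttf+/+T43H, 9.11 to 12.22 in t12+/+T43 and 12.87 to 13.52 in the later C57BL/10J cells. Spermatid markers were thus higher in the C57BL/10J pre-mid-pachytene sort than in the later one, against its label, with none of the 12 markers below 4 on both arrays. Markers of mid-late pachytene (10 genes) stood at 15.68 to 15.69, 15.09 to 16.19, 15.32 to 15.71 and 16.79 to 16.93 in the same order. In testes all 12 spermatid markers were below 4 on every array. Spermatogonial markers (6 genes) summed to 12.98 on Ttf+/+T43H sorted replicate 2, against 10.54 and 10.20 on its companions. On t12+/+T43 sorted replicate 3, Leydig markers summed to 13.84 and Sertoli markers to 15.48, the highest of the sorted arrays. The part of these cells in the values of both arrays was not tested.

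Pgk2 was the member that differed most between groups. In sorted cells it read 13.03 and 12.80 in the earlier C57BL/10J cells, 13.53 and 13.81 in the later ones, 10.35, 10.82 and 11.07 in Ttf+/+T43H and 7.53, 10.37 and 7.43 in t12+/+T43. In testes it read 5.66 and 5.23 in C57BL/6J, 3.30, 2.78 and 2.74 in Ttf+/+T43H and 2.79, 2.69 and 2.61 in t12+/+T43. Every carrier array lay below every control array of its tissue, and in testes all carrier values were under 4. Group means ran, from high to low, 13.67 ± 0.20 in mid-late, 12.92 ± 0.16 in C57BL/10J pre-mid, 10.75 ± 0.36 in Ttf+/+T43H and 8.44 ± 1.7 in t12+/+T43 sorted cells, then 5.44 ± 0.30, 2.94 ± 0.31 and 2.70 ± 0.093 in the testes of C57BL/6J, Ttf+/+T43H and t12+/+T43 (SD). Neighbours in that order overlapped between both carrier groups, in sorted cells and in testes, and nowhere else. Here and below, overlap describes groups of 2 or 3 arrays. The share of all genes whose groups do not overlap was not counted, so non-overlap is not a result about the members.

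Cetn1, at chr18:9618419-9619469, was highest in the mid-late-pachytene cells. It read 9.97 and 9.53 in the earlier C57BL/10J cells, 13.29 and 13.52 in the later ones, 10.92, 10.58 and 11.49 in Ttf+/+T43H and 10.35, 10.44 and 10.01 in t12+/+T43. The testes read 9.16 and 8.71 in C57BL/6J, 10.13, 9.59 and 9.34 in Ttf+/+T43H and 8.75, 8.40 and 7.47 in t12+/+T43. Both mid-late arrays stood above all other arrays of the series. Among pre-mid-pachytene groups the order was Ttf+/+T43H, t12+/+T43, C57BL/10J with no overlap, and the last of these overlapped with Ttf+/+T43H testes.

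Pdha2 was already high at the earlier stage. Its sorted values were 14.05 and 14.14 in the earlier C57BL/10J cells, 14.07 and 14.45 in the later ones, 13.74, 11.25 and 14.62 in Ttf+/+T43H and 14.20, 13.98 and 14.07 in t12+/+T43. Testis values were 11.77 and 11.68 in C57BL/6J, 12.09, 11.98 and 11.82 in Ttf+/+T43H and 11.66, 11.53 and 11.16 in t12+/+T43. All 4 sorted groups overlapped with their neighbours in order, and the value of 11.25 is that of Ttf+/+T43H replicate 2. The 3 testis groups did not overlap.

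Utp14b was also highest in the later C57BL/10J cells. The sorted arrays gave 6.76 and 7.19 in the earlier C57BL/10J cells, 9.05 and 9.39 in the later ones, 7.49, 7.61 and 7.70 in Ttf+/+T43H and 7.34, 7.69 and 7.61 in t12+/+T43. The testes gave 4.89 and 4.91 in C57BL/6J, 5.93, 6.16 and 5.73 in Ttf+/+T43H and 5.90, 6.08 and 5.75 in t12+/+T43. Both carrier lines overlapped with each other in each tissue and lay, on every array, above the earlier C57BL/10J cells and above C57BL/6J testes. In sorted cells they lay below the later C57BL/10J cells.

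Cstf2t differed little between groups. It read 12.28 and 12.28 in the earlier C57BL/10J cells, 12.15 and 12.28 in the later ones, 12.22, 11.60 and 12.56 in Ttf+/+T43H and 12.31, 12.66 and 12.58 in t12+/+T43. In testes it read 11.80 and 11.78 in C57BL/6J, 11.69, 11.61 and 11.61 in Ttf+/+T43H and 11.60, 11.51 and 11.52 in t12+/+T43. All 10 sorted arrays but 1 lay above 12, and the exception was again Ttf+/+T43H replicate 2, at 11.60. The plot of the retrogenes on every array shows these levels side by side.

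**Figure D1:**
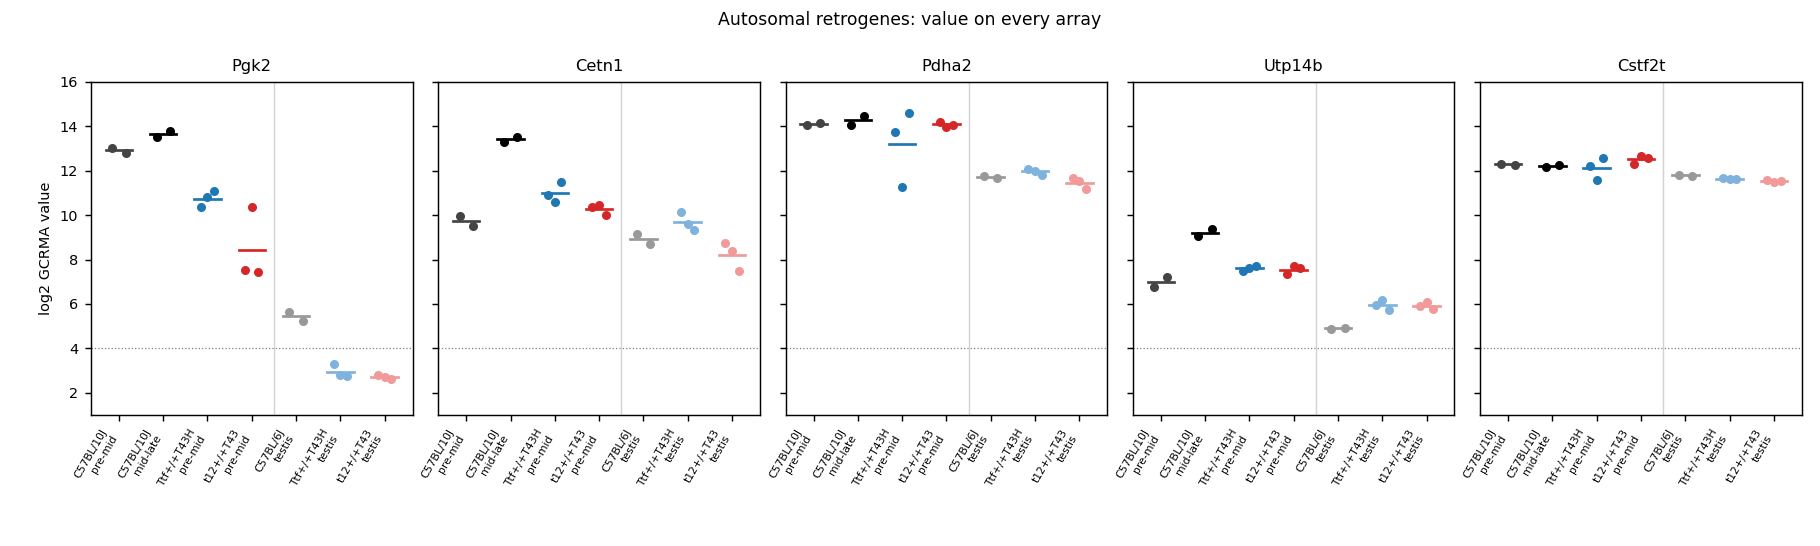
Values of the 5 retrogenes on all 18 arrays, on the authors' log2 GCRMA scale (vertical axis), by group (horizontal axis), with 1 point per array and a line at each group mean. Sorted cells stand left of the grey line and testes right of it, and the dotted line marks a log2 value of 4. Cetn1 and Utp14b are highest in mid-late-pachytene cells. Group means of Pdha2 and Cstf2t differ by 0.17 and -0.07 between the C57BL/10J stages, and neither change was called. Pgk2 is lower in every carrier array than in the controls of its tissue.

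The onset across pachytene was read from C57BL/10J cells, mid-late against pre-mid. Changes were tested with limma over 9666 genes of the 10 sorted arrays, with Benjamini-Hochberg adjustment over all of them, and an adjusted p under 0.05 is called. Of 5 retrogenes, 2 rose and none fell, where 26.2% of all tested genes rose, 30.3% fell and 56.5% were called in either direction. Cetn1 rose by 3.66 ± 0.33 on the log2 scale (SE), 12.6-fold, with limma's adjusted p = 2.8e-05, and Utp14b rose by 2.24 ± 0.25, 4.71-fold, with adjusted p = 9.7e-05. Among tested genes, 93.9% had a lower change than Cetn1 and 86.4% a lower change than Utp14b. Pgk2 differed by 0.75 ± 0.85 (limma adjusted p = 0.49), Pdha2 by 0.17 ± 0.87 (0.9) and Cstf2t by -0.07 ± 0.32 (0.89), and none of these 3 was called. Both Pgk2 arrays of the later stage were above both of the earlier one, and limma takes the spread over all 10 sorted arrays. Without t12+/+T43 replicate 2 the same difference had limma's adjusted p = 0.045. Without mid-late replicate 2 the Pdha2 difference was -0.02. With each array centred on its median over named genes, which averaged 5.07 in the earlier and 4.56 in the later cells, Cstf2t turned to 0.45 (adjusted p = 0.3). The median change of the 5 members was 0.75, and that of all tested genes was -0.11. Spermatid markers were higher in the earlier sort (above), and the actin 3' to 5' difference was lower there, and their part in these differences was not tested.

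All 4 measured parents fell over the same step. Cetn2 read 9.67 and 9.75 in pre-mid and 2.80 and 2.83 in mid-late cells, and fell by 6.90 ± 0.48 on the log2 scale (limma adjusted p = 6e-06). Utp14a read 9.46 and 9.67, then 3.26 and 2.52, and fell by 6.68 ± 0.75 (9.1e-05). Cstf2 read 10.50 and 10.80, then 7.29 and 4.78, and fell by 4.61 ± 0.80 (0.0011). The later arrays differed by more for Cstf2 than for the other parents, and neither reached background. Pdha1, already at 5.69 and 5.76 in the earlier cells, read 2.89 and 2.78 in the later ones and fell by 2.89 ± 0.37 (0.00018). Cetn2, Utp14a and Pdha1 ended under 4, so their true falls may be larger than the values show. Of 301 X genes tested, 220 fell and 5 rose, with a median change of -3.60. Markers of some other cells fell over the step too, where 30.3% of all tested genes fell. They are 5 of 6 tested Sertoli markers (median -3.91, sums of 13.53 to 13.63 against 8.51 to 8.80), 4 of 6 spermatogonial (-2.82) and 5 of 7 leptotene and zygotene markers (-3.47), and none of these rose. In the fit without both arrays that stood apart, 2 of 3 peritubular (-2.92) and 1 of 5 Leydig markers (-0.78) fell. In that fit 1 of 2 macrophage and blood markers rose and 0 fell. The part of these cells in the fall of the parents was not tested. The changes of retrogenes, other retrocopies and parents are drawn together.

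**Figure D2:**
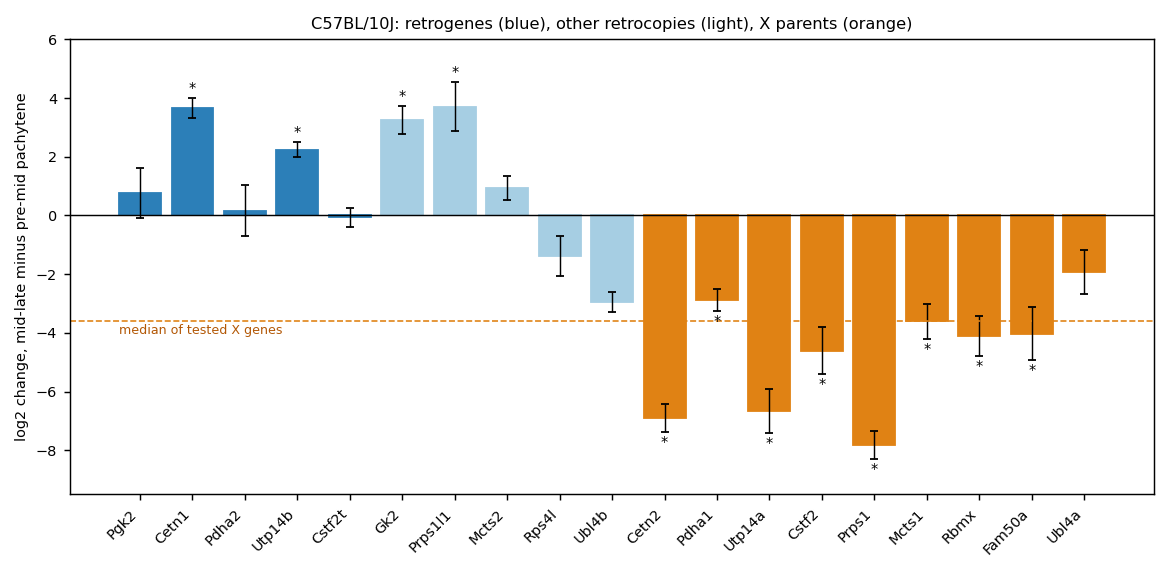
Change from pre-mid to mid-late pachytene in C57BL/10J cells (vertical axis, log2 difference of group means, 2 arrays against 2) for the 5 retrogenes, 5 other retrocopies and 9 X-linked parent genes. Bars are limma estimates, whiskers are 1 SE, and a star marks an adjusted p under 0.05 (Ubl4b, which passed the filter only through the earlier cells, has none); the dashed line is the median of the tested X genes, -3.60. Cetn1 and Utp14b stand above 2 and all 4 parents of the retrogenes below -2.

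Within an array the retrogene can be set against its parent as a difference of log2 values. From pre-mid to mid-late cells that difference grew by 10.56 for Cetn1 over Cetn2 and 8.91 for Utp14b over Utp14a. It grew by 4.54 for Cstf2t over Cstf2 and 3.06 for Pdha2 over Pdha1. Cetn2, Utp14a and Pdha1 were under 4 in the later cells, so the values of their pairs are not exact and may be too small. In each pair both later arrays stood above both earlier ones. The exact two-sided permutation test gives p = 0.3333 for each, which is the smallest that 2 arrays against 2 allow, so no such test can pass the threshold. Over the family of 36 such tests in 9 comparisons, the smallest adjusted p was 0.379. In all 4 pairs the parent changed by more than its retrogene. Retrogene changes were 3.66 (Cetn1), 2.24 (Utp14b), 0.17 (Pdha2) and -0.07 (Cstf2t), beside parent changes of -6.90, -6.68, -2.89 and -4.61.

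**Figure D3:**
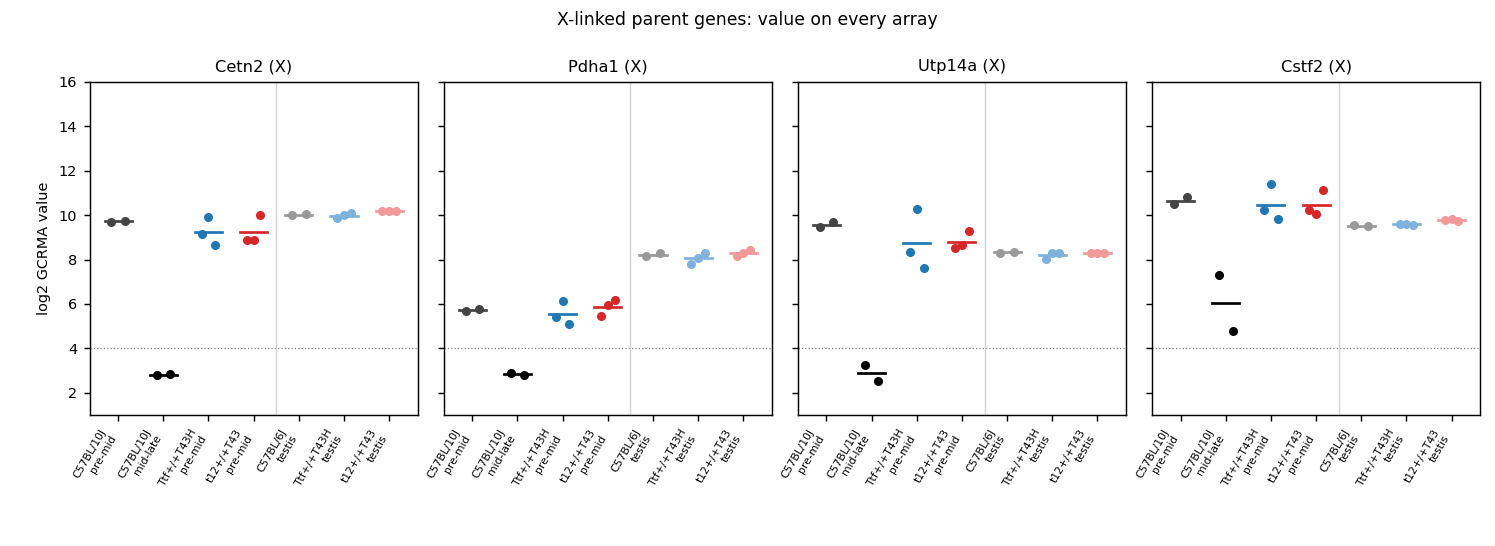
Values of the 4 measured X-linked parents on all 18 arrays, on the authors' log2 GCRMA scale (vertical axis), by group (horizontal axis), with 1 point per array and a line at each group mean. The dotted line marks a log2 value of 4. Mid-late-pachytene arrays are the lowest for all 4 parents, and carriers and controls overlap in pre-mid-pachytene cells for Cetn2, Pdha1 and Cstf2.

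Carriers were then compared with C57BL/10J males at the pre-mid-pachytene stage. Both comparisons use the same 2 control arrays and so share their error. Against these controls, 0 of 5 retrogenes were called in Ttf+/+T43H cells, where limma called 2.06% of all tested genes, 0.59% higher and 1.47% lower (3 of 5 had an unadjusted p under 0.05). In t12+/+T43 cells 1 of 5 was called, Pgk2, where 9.07% of all genes were called in either direction and 5.83% fell. Pgk2 fell by 4.47 ± 0.78 on the log2 scale in t12+/+T43 cells, 22.2-fold (limma adjusted p = 0.0095), and was lower by -2.17 ± 0.78 in Ttf+/+T43H cells (0.19). The t12+/+T43 call rests on both control arrays: without C57BL/10J pre-mid replicate 1 the change was -4.36 (adjusted p = 0.11), and without replicate 2 it was -4.59 (0.07). The Ttf+/+T43H difference was called without t12+/+T43 replicate 2, with adjusted p = 0.0065. In 1 fit of all 18 arrays it was called too (0.035). Leaving out both arrays that stood apart left Pgk2 called in t12+/+T43 cells and not in Ttf+/+T43H cells.

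The other retrogenes differed less. Cetn1 was 1.25 ± 0.31 higher in Ttf+/+T43H cells (limma adjusted p = 0.076) and 0.52 ± 0.31 higher in t12+/+T43 cells (0.38). Without Ttf+/+T43H replicate 2, which stood apart, the first of these was 1.46 and was called (0.04). Utp14b was 0.62 ± 0.23 (0.21) and 0.57 ± 0.23 (0.19) higher in the same order, and was called in both lines in 1 fit of all 18 arrays (0.037 and 0.042). Pdha2 differed by -0.89 ± 0.80 (0.63) and -0.01 ± 0.80 (1.0). Cstf2t differed by -0.15 ± 0.29 (0.86) and 0.24 ± 0.29 (0.74). Without Ttf+/+T43H replicate 2, the values of Pdha2 and Cstf2t in that line were 0.09 and 0.11. Among the parents, 0 of 4 were called in either line, and 0 of 4 had an unadjusted p under 0.05 in limma's test. Without both arrays that stood apart, Utp14a was -1.60 lower in Ttf+/+T43H cells and was called (0.047), and with single arrays left out it ran from -1.60 to -0.25. The parents differed by -0.82 to -0.18 in Ttf+/+T43H cells and by -0.76 to 0.14 in t12+/+T43 cells.

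**Figure D4:**
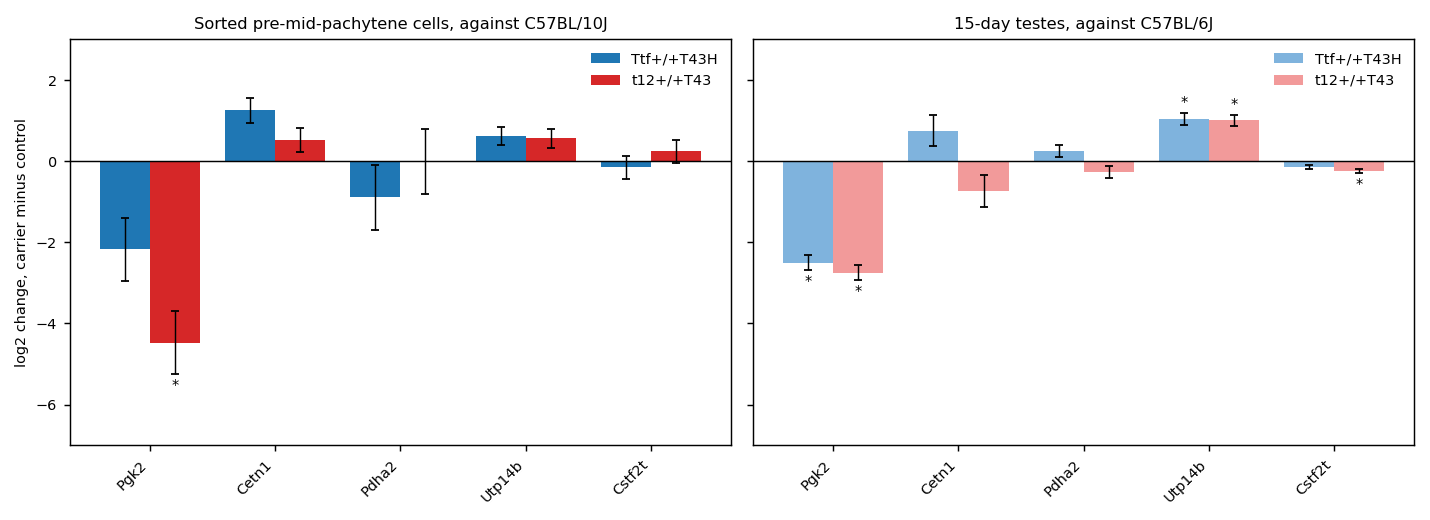
Change of the 5 retrogenes in carriers against controls (vertical axis, log2 difference of group means), in sorted pre-mid-pachytene cells against C57BL/10J (left) and in 15-day testes against C57BL/6J (right), with 3 carrier arrays and 2 control arrays in each comparison. Bars are limma estimates, whiskers are 1 SE and a star marks an adjusted p under 0.05. Pgk2 is lower in all 4 comparisons and called in 3. In testes it passed the filter on low values only through both C57BL/6J arrays, the group where it is high, with every carrier value under 4. Utp14b is about 1 log2 unit higher in both testis comparisons, which share their 2 control arrays.

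The lowest Pgk2 values of sorted cells came with the lowest spermatid markers. In sorted cells the array values of Pgk2 and of the 12 spermatid markers were lowest together in t12+/+T43 replicates 1 and 3 (Pgk2 at 7.53 and 7.43, spermatid markers at 9.11 and 9.36). The third array of that line had both higher, at 10.37 and 12.22. Ttf+/+T43H arrays lay between t12+/+T43 replicates 1 and 3 and the C57BL/10J pre-mid-pachytene arrays on both measures. Ttf+/+T43H replicate 1 had Pgk2 at 10.35, just below t12+/+T43 replicate 2. Mid-late-pachytene arrays had the highest Pgk2, at 13.53 and 13.81, with spermatid markers of 13.52 and 12.87. These marker sums were below those of the earlier control cells and of Ttf+/+T43H (13.85 to 14.76). Of the 12 spermatid markers, Catsper1 was under 4 on every array of both carrier groups, and Spata19 on those of t12+/+T43. Leydig cell markers, 5 genes, summed to 10.15 to 11.58 in Ttf+/+T43H, 11.20 to 13.84 in t12+/+T43 and 6.81 to 9.20 in C57BL/10J pre-mid-pachytene cells. Sertoli cell markers, 9 genes, summed to 14.05 to 14.47, 13.74 to 15.48 and 13.53 to 13.63, with Amh, Gata4 and Fshr under 4 on every array of all 3 groups. The part of either marker list in the Pgk2 result was not tested.

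**Figure D5:**
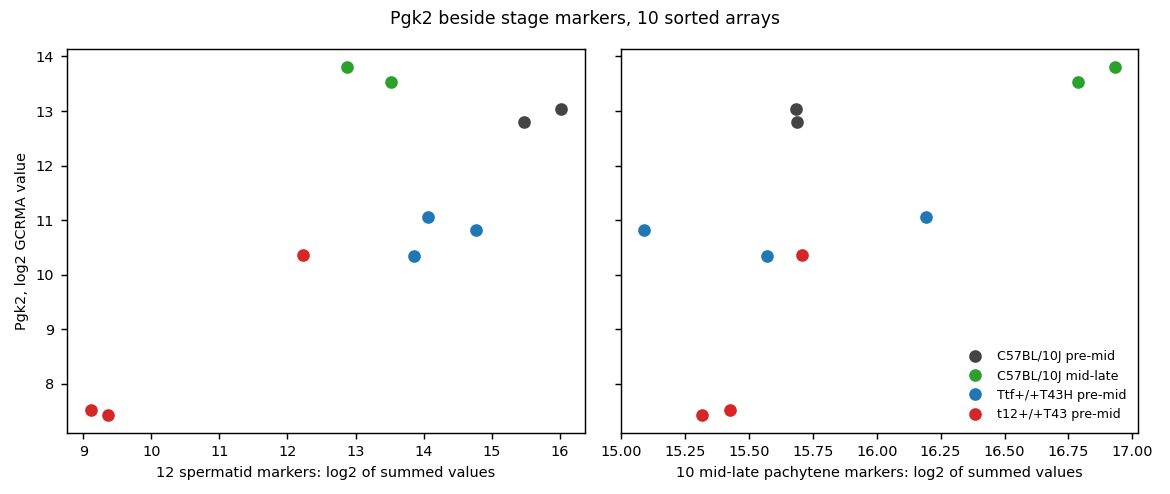
Pgk2 on each of the 10 sorted arrays (vertical axis, log2 GCRMA value) against the summed values of 12 spermatid markers (left) and 10 mid-late pachytene markers (right), both on the log2 scale, with 1 point per array coloured by group. The t12+/+T43 arrays with Pgk2 at 7.43 and 7.53 have the lowest spermatid sums, and the mid-late-pachytene arrays combine the highest Pgk2 with the highest mid-late pachytene sums.

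Between the carrier lines, 0 of 5 retrogenes were called in pre-mid-pachytene cells, where limma called 0.755% of all genes, 0.0621% higher and 0.693% lower (2 of 5 had an unadjusted p under 0.05). Pgk2 was lower in t12+/+T43 than in Ttf+/+T43H cells by -2.30 ± 0.70 (limma adjusted p = 0.24). That difference was -3.27 with adjusted p = 0.00043 without t12+/+T43 replicate 2, whose Pgk2 value falls among those of Ttf+/+T43H, and -1.76 (0.62) without both arrays that stood apart. In 1 fit of all 18 arrays the difference was called (0.031). Cetn1 differed by -0.73 ± 0.27 (0.37), Pdha2 by 0.88 ± 0.71 (0.8), Utp14b by -0.05 ± 0.21 (0.98) and Cstf2t by 0.39 ± 0.26 (0.74). The Pdha2 difference turned to -0.10 without Ttf+/+T43H replicate 2.

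Set against the later C57BL/10J cells, carriers' pre-mid-pachytene cells differ in stage as well as genotype. In Ttf+/+T43H 3 of 5 retrogenes were lower, where 28.6% of all genes were lower and 60.3% were called in either direction, and in t12+/+T43 3 of 5, where 30.2% were lower and 64.4% were called. Pgk2 was -2.92 ± 0.78 lower in Ttf+/+T43H (limma adjusted p = 0.01) and -5.23 ± 0.78 in t12+/+T43 (0.00036). The first of these lost its call without mid-late replicate 2 (-2.78, adjusted p = 0.061). Cetn1 was -2.41 ± 0.31 (0.00016) and -3.14 ± 0.31 (2.8e-05) lower, and Utp14b -1.62 ± 0.23 (0.00033) and -1.67 ± 0.23 (0.00024). Pdha2 differed by -1.06 ± 0.80 (0.29) and -0.18 ± 0.80 (0.86), and Cstf2t by -0.09 ± 0.29 (0.82) and 0.30 ± 0.29 (0.38). All 4 parents were called higher in each line, where 31.7% and 34.2% of all genes and 72.1% and 74.4% of X genes were, by 2.71 to 6.42 and by 3.03 to 6.43. These comparisons share their control arrays with the comparison of stages.

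Testes of 15-day-old males hold the first wave of spermatocytes before spermatids form. The 8 testis arrays were fitted apart, over 9134 genes. Both carrier lines are compared with the same 2 C57BL/6J arrays, so these comparisons share their error. In Ttf+/+T43H testes 2 of 5 retrogenes were called against C57BL/6J, where 8.56% of all genes were (3.86% higher and 4.7% lower), and in t12+/+T43 testes 3 of 5, where 21.8% were (10.5% higher and 11.3% lower). Pgk2 fell, with a log2 change of -2.50 ± 0.19 in Ttf+/+T43H (limma adjusted p = 0.00055) and -2.75 ± 0.19 in t12+/+T43 (0.00026). All 6 carrier arrays were under a log2 value of 4, so the fall may be larger than shown. Pgk2 passed the filter on low values only through both C57BL/6J arrays, the group where it is high, and so adds to the counts above by way of that filter, and it was not tested when either array was left out. With no filter, over 15780 genes, limma's adjusted p was 0.0019 and 0.00099. In 1 fit of all 18 arrays the Ttf+/+T43H call was lost (0.13). Spermatid markers were under 4 on every testis array, carriers and controls alike. Of the 10 mid-late pachytene markers, Ccna1 and Ovol1 were under 4 on every testis array, and Tcp11 and Adam3 on every carrier array but not on every C57BL/6J array. Of 7 such markers tested, 1 fell in Ttf+/+T43H and 5 in t12+/+T43 testes. Tcp11 or Adam3 is among the 7 and passed the filter only through both C57BL/6J arrays, the group where it is high. Any fall of that gene adds to these counts by way of the filter. The part of the markers in the Pgk2 result was not tested.

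Utp14b rose by 1.04 ± 0.14, 2.06-fold, in Ttf+/+T43H testes (limma adjusted p = 0.0062) and by 1.01 ± 0.14, 2.01-fold, in t12+/+T43 testes (0.0038). Of all tested genes 99.5% and 99.3% had a lower change. The Ttf+/+T43H call was lost without either C57BL/6J array, at a change of 1.03 (0.054) or 1.05 (0.056). Its host gene Acsl3 differed by 0.06 ± 0.06 (0.52) and 0.17 ± 0.06 (0.072) in the same testes. Cstf2t fell by 0.25 ± 0.05 in t12+/+T43 testes (0.017), and was -0.15 ± 0.05 lower in Ttf+/+T43H (0.13). That call was lost without t12+/+T43 testis replicate 2 (-0.23, adjusted p = 0.051), without C57BL/6J replicate 1 (-0.24, 0.11) or replicate 2 (-0.26, 0.075), and in 1 fit of all 18 arrays. The parent Cstf2 rose by 0.26 ± 0.05 in t12+/+T43 testes (0.011), a call lost without either C57BL/6J array (0.28 with 0.057, and 0.24 with 0.071), and the other 3 parents were not called in either line.

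Neither Cetn1 nor Pdha2 was called against C57BL/6J, and each differed upward in 1 line and downward in the other. Cetn1 differed from C57BL/6J by 0.75 ± 0.39 in Ttf+/+T43H (limma adjusted p = 0.28) and by -0.73 ± 0.39 in t12+/+T43 testes (0.22), and Pdha2 by 0.24 ± 0.15 (0.35) and -0.27 ± 0.15 (0.22). Between the lines directly, 0 of 5 retrogenes were called, where 4.99% of all genes were, 1.07% higher and 3.92% lower (2 of 5 had an unadjusted p under 0.05 in limma's test). Cetn1 was lower in t12+/+T43 testes by -1.48 ± 0.35 (0.057) and Pdha2 by -0.52 ± 0.13 (0.066), with no overlap between the arrays of either line. Without Ttf+/+T43H testis replicate 3 the Cetn1 difference was -1.65 and was called (0.049), and a filter at a log2 value of 6 gave 0.046. Mid-late pachytene markers summed to 13.46 to 14.06 in t12+/+T43 testes, 14.41 to 14.95 in Ttf+/+T43H and 14.62 to 14.84 in C57BL/6J, and their part in these differences was not tested. Pgk2 differed by -0.24 ± 0.17 (0.39), Utp14b by -0.03 ± 0.12 (0.89) and Cstf2t by -0.10 ± 0.05 (0.23). Pgk2 was under 4 on every carrier array and passed the filter only through C57BL/6J arrays, which are not in this comparison. Its value therefore cannot show whether the lines differ. Cstf2 was 0.20 ± 0.04 higher in t12+/+T43 testes (0.048), a call lost when any of the 8 arrays was left out (0.17 to 0.22, adjusted p from 0.064 to 0.15).

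Whether the difference between the lines itself differed between sorted cells and testes was tested in a fit of all 18 arrays over 10623 genes. None of the 5 retrogenes was called, where 0.734% of genes were, 0.0659% above and 0.668% below 0 (1 of 5 had an unadjusted p under 0.05 in limma's test). The interaction was -2.06 ± 0.80 for Pgk2 (limma adjusted p = 0.49), 0.75 ± 0.46 for Cetn1 (0.78), 1.40 ± 0.81 for Pdha2 (0.76), -0.02 ± 0.23 for Utp14b (0.99) and 0.49 ± 0.26 for Cstf2t (0.75). For Pgk2 it was -3.02, with adjusted p = 2.9e-05, without t12+/+T43 sorted replicate 2, and -1.52 (0.63) without both arrays that stood apart. Every carrier testis value of Pgk2 was under 4, where a difference between the lines could hardly be seen. For Pgk2 the interaction therefore cannot tell whether the lines differ otherwise in testes than in sorted cells.

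The pathways of the members were followed through lists of their other genes. Over the step from pre-mid to mid-late pachytene, 5 of 14 tested glycolysis genes rose and 4 fell, where 26.2% of all genes rose and 30.3% fell, with a median change of 0.41 beside -0.11 for all genes. Those that rose include Pfkp (4.46 ± 0.38, limma adjusted p = 1.9e-05), Eno4 (3.58 ± 0.43) and Pfkm (2.65 ± 0.57), which encode phosphofructokinases and an enolase. Those that fell include Ldhb (-5.85 ± 0.53), Pkm (-4.35 ± 0.60) and Gapdhs (-3.11 ± 0.55), the last being the sperm form of glyceraldehyde phosphate dehydrogenase and also a spermatid marker. In t12+/+T43 against C57BL/10J pre-mid-pachytene cells, where Pgk2 fell, 2 of 14 rose and 3 fell (3.24% and 5.83% of all genes), among them Gapdhs (-6.69 ± 0.51, adjusted p = 0.00034) and Tpi1 (-1.88 ± 0.35, 0.012). The Tpi1 call was lost without either control array (highest adjusted p = 0.14). In Ttf+/+T43H cells 0 of 14 were called (3 had an unadjusted p under 0.05). Tpi1, the triose phosphate isomerase, also fell in both testis comparisons, with changes of -0.84 ± 0.13 in Ttf+/+T43H (0.01, lost without either C57BL/6J array, highest adjusted p = 0.077) and -0.89 ± 0.13 in t12+/+T43 (0.0044).

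Around Pdha2, 2 of 7 tested genes of the pyruvate dehydrogenase complex and its regulators rose across pachytene and 2 fell, shares near those of all genes (26.2% and 30.3%), with a median of -0.19 beside -0.11. Pdk2 rose by 4.13 ± 0.32 (limma adjusted p = 1.1e-05) while Pdk1 (-5.68 ± 0.34) and Pdk3 (-4.46 ± 0.65) fell, all of them kinases that switch the complex off. Pdk3 is itself X-linked. Pdhx, a structural subunit, rose by 1.90 ± 0.27 (0.00034). In t12+/+T43 testes 2 of 8 rose and 3 fell (10.5% and 11.3% of all genes), and Dlat, the E2 subunit, fell by 0.80 ± 0.09 (0.002). In Ttf+/+T43H testes 0 of 8 were called (3 had an unadjusted p under 0.05).

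Of 5 centrins and centrin partners, Cetn4 (1.68 ± 0.41, limma adjusted p = 0.0067) and Cetn3 (1.07 ± 0.35, 0.027) rose across pachytene with Cetn1. Xpc fell by 3.08 ± 0.50 (0.00076). Among all tested genes 26.2% rose and 30.3% fell. The Cetn3 call was lost without any of the 4 C57BL/10J arrays (highest adjusted p = 0.11). In t12+/+T43 testes Cetn4 fell by 0.94 ± 0.16 against C57BL/6J (0.0086, or 0.073 without C57BL/6J replicate 1).

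The small subunit processome, to which Utp14b and Utp14a belong, had no other member that rose across pachytene. Of 24 tested genes 13 fell and 11 were not called, where 26.2% of all genes rose and 30.3% fell. The median was -1.27 beside -0.11 for all genes, and those that fell include Wdr3 (-5.57 ± 0.40, limma adjusted p = 7e-06), Rcl1 (-5.44 ± 0.45) and Wdr43 (-3.55 ± 0.26). At an unadjusted p under 0.05, 13 of 24 passed. Without both arrays that stood apart, 1 rose and 14 fell. In Ttf+/+T43H testes, where Utp14b rose, 0 of 23 rose and 1 fell (Wdr46, -0.43 ± 0.06, limma adjusted p = 0.0074, or 0.069 without C57BL/6J replicate 2), and in t12+/+T43 testes 1 rose and 1 fell (10.5% and 11.3% of all genes).

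Among 18 tested cleavage and polyadenylation genes, 4 rose and 7 fell across pachytene, where 26.2% of all genes rose and 30.3% fell, with a median of -0.64 beside -0.11. Papolb, the testis poly(A) polymerase, rose by 3.24 ± 0.48 (limma adjusted p = 0.00048) and Cstf1, another subunit of the factor that Cstf2t belongs to, rose by 1.36 ± 0.26 (0.0017). Cpsf6 (-3.72 ± 0.25) and Cpsf7 (-2.64 ± 0.34), subunits of cleavage factor I, fell. Papolb fell by 3.71 ± 0.44 in t12+/+T43 against C57BL/10J pre-mid-pachytene cells (0.0019). In t12+/+T43 testes, where Cstf2t fell, 5 of 18 rose and 0 fell, where 10.5% and 11.3% of all genes did (7 had an unadjusted p under 0.05 in limma's test). Without both arrays that stood apart, the pachytene counts of higher and lower genes were 6 and 5 for glycolysis, 3 and 3 for pyruvate dehydrogenase, 3 and 1 for centrins and 5 and 9 for cleavage and polyadenylation.

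Other autosomal retrocopies of X genes did not all behave alike. Of 13 listed, 6 are on the array and 5 were tested in sorted cells. Across pachytene, Prps1l1, a copy of the phosphoribosyl pyrophosphate synthetase gene Prps1, rose by 3.70 ± 0.83 (limma adjusted p = 0.0047) and Gk2, a glycerol kinase, rose by 3.25 ± 0.49 (0.00049). Mcts2 was 0.94 ± 0.41 higher (0.081) and Rps4l differed by -1.38 ± 0.68 (0.12). Both of these were called without t12+/+T43 replicate 2 (0.018 and 0.00062). Ubl4b read 6.30 and 5.26 in the earlier C57BL/10J cells, 2.76 and 2.91 in the later ones and 2.47 to 2.94 on all 6 carrier arrays. It passed the filter only through the earlier cells, the group where it is high, so these levels are given with no test. G6pd2 read between 2.42 and 3.04 on all 18 arrays and was not tested. Of 5 parents of these copies on the array, 4 fell across pachytene, where 73.1% of the tested X genes did. They are Prps1 (-7.83 ± 0.47), Rbmx (-4.11 ± 0.69), Fam50a (-4.03 ± 0.91) and Mcts1 (-3.61 ± 0.59). Ubl4a was -1.93 ± 0.74 lower (limma adjusted p = 0.051).

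In testes, Gk2 read 10.07 and 9.80 in C57BL/6J, 11.08, 10.67 and 10.23 in Ttf+/+T43H and 9.66, 9.16 and 8.42 in t12+/+T43. It was called lower in t12+/+T43 than in Ttf+/+T43H testes (-1.58 ± 0.33, limma adjusted p = 0.044), as was Prps1l1 (-1.67 ± 0.36, 0.048), while Cetn1 at -1.48 ± 0.35 was not (0.057). Both calls were lost in 6 of 8 fits with an array left out (highest adjusted p = 0.15 for each). The host gene of Utp14b, Acsl3, rose across pachytene by 1.21 ± 0.24 (0.0022), beside 2.24 for Utp14b, and rose by 0.90 ± 0.22 in t12+/+T43 against C57BL/10J pre-mid-pachytene cells (0.036). The last call was lost in 7 of 10 fits with an array left out (highest adjusted p = 0.24). Whether the probes of Utp14b also detect Acsl3 was not tested. Prkg1, which holds Cstf2t, read at most 4.52 in sorted cells and was not tested there.

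The members' profiles were compared with all other tested genes by Pearson's r, as a description. Over all 18 arrays Pgk2 was most like Slc16a7 (r = 0.990), Tcp11 (0.990) and 1700029I15Rik (0.988), of which Tcp11 is on chromosome 17 with it. Cetn1 was most like Insl6 (0.987), C2cd6 (0.981) and 2700046G09Rik (0.980), and Pdha2 most like Cfap300 (0.987), Ift80 (0.985) and Atp6v1a (0.984). Utp14b was most like Gpr19 (0.984), Nmnat1 (0.975) and Larp1b (0.970), and Cstf2t most like Asb3 (0.964), Rcc1l (0.962) and Sgo2a (0.961). Sorted cells and testes differ throughout and raise all of these values. Within the 10 sorted arrays the nearest were Ctnna3, Nipsnap3a and Ttc39a for Pgk2 (0.992 to 0.988), Ptpdc1, Tex2 and Timm8a2 for Cetn1 (0.991 to 0.987), and Nudt9, Bhmt2 and Rhobtb1 for Utp14b (0.989 to 0.979). Pdha2 had Cfap300 (0.984), Mmachc (0.983) and Cops5 (0.977), and Cstf2t had Rcc1l (0.961), Metap1 (0.949) and Kbtbd6 (0.942).

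Among the members themselves, r over the 10 sorted arrays was 0.940 for Cetn1 with Utp14b and 0.821 for Pdha2 with Cstf2t. Pgk2 stood apart, with 0.509 to Cetn1, 0.420 to Utp14b, 0.086 to Pdha2 and -0.259 to Cstf2t. The first pair shares its high values in the later C57BL/10J cells and the second its low value on Ttf+/+T43H replicate 2, and the arrays share their depth of signal and groups.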

How the data were processed

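Expression was measured on 18 Affymetrix arrays of sorted spermatocytes and testes, from 20 to 30 ng of RNA with two-cycle labelling, per the labels' protocols. The deposited values are log2 signals that the authors made with GCRMA, whose version is not given in the sources used here, per the submitters' processing notes. The table holds 16539 probe sets, of which 15780 have 1 gene symbol and 759 none. GCRMA pulls weak probes to a common low level, so changes of genes near background are compressed.

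Groups came from the labels. Genes at a log2 value of at least 4 on at least 2 arrays of a fit were tested with limma 3.58.1 (lmFit and eBayes, R 4.3.3), with Benjamini-Hochberg adjustment over all tested genes, in separate fits of 10 sorted and 8 testis arrays and a fit of all 18 for the interaction. Retrogene minus parent differences were tested by exact permutation (scipy 1.17.1). The tests were checked on simulated data. Named are the members, their parents, up to 3 called genes per direction and list with the largest changes, all listed retrocopies, and the 3 genes most like each member. The members and lists were chosen with earlier results of these data known. Alternatives varied the filter, normalization, variance trend, array weights, the replicate number as a block, a joint fit and each array left out. Leaving out arrays for the listed genes was chosen after seeing the data. Promoter windows came from RefSeq, GRCm38.p6.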

Additional observations from a re-analysis of the deposited data

Results flagged for a closer look

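Cstf2t differed from controls in opposite directions in both tissues of t12+/+T43 males. It was 0.24 ± 0.29 higher than in C57BL/10J in sorted pre-mid-pachytene cells and fell by 0.25 ± 0.05 on the log2 scale against C57BL/6J in testes (SE), with no overlap of arrays in either comparison. The gap between both changes was 0.487. That difference was not tested, only the testis change was called by limma, and the control strain differs between the tissues. The change in sorted cells was smaller than its SE. How many of all genes show such a pattern was not counted.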

How the results depend on the processing

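The members and parents gave 1620 values under alternatives. Of these 1511 kept direction and side of the threshold, 22 lost a call, 26 gained one and 61 turned direction, none of the last being called in the main analysis. The rises of Cetn1 and Utp14b and the falls of all 4 parents across pachytene kept their call with each array left out. The causes of the shifts below were not tested.

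Counts of called genes moved more. Across pachytene the 5464 genes became 8867 with no filter, and 3874 to 6218 with an array left out. Against the earlier C57BL/10J cells, the 199 genes of Ttf+/+T43H became 18 with the replicate number as a block, 1560 in 1 fit of all 18 arrays, 542 without both arrays that stood apart and 0 to 632 with an array left out. The 877 of t12+/+T43 became 400, 2213 in the joint fit and 141 to 1391. Between carriers' sorted cells 73 became 15 with no filter, 0 with the block, 575 in the joint fit, 0 without both arrays and 13 to 411. Against the later C57BL/10J cells, 5825 (Ttf+/+T43H) became 9775 with no filter and 4139 to 6106, and 6224 (t12+/+T43) became 9989 and 4553 to 6833. In testes, 782 (Ttf+/+T43H) became 2139 with the block, 2313 with array weights, 68 in the joint fit and 176 to 827. The 1994 of t12+/+T43 became 195 and 596 to 2081. Between carriers' testes 456 became 149 with no filter, 1703 with the block, 1945 with weights, 7 in the joint fit and 9 to 900. The interaction's 78 became 18 with the block and 46 to 429. Array weights did not converge for sorted cells and for all arrays and were not run there.

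Deviations of same-numbered arrays had r of -0.347 to 0.249 (sorted) and -0.074 to 0.677 (testes). Not every pair passed 0.1, and the labels do not say what a number shares, so the samples were not treated as paired. Of 6 carrier arrays, 4 in testes and 2 in sorted cells correlated best with their own number, a hint from the data and not the design. With the block in testes, Cetn1 (-1.48, limma adjusted p = 0.0016) and Pdha2 (-0.52, 0.0036) were called between carriers, as were Cetn1 (1.02, 0.0091) and Pdha2 (0.35, 0.018) in Ttf+/+T43H, and Pdha1 turned to -0.016 in t12+/+T43 against C57BL/6J.

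The other turned values were small. Quantile normalization gave -0.035 for Cetn2 and -0.042 for Cstf2 between carriers' sorted cells, 0.11 for Cstf2t in Ttf+/+T43H against later cells and 0.00090 for Utp14b between carriers' testes. Centring arrays on their median gave Cstf2t 0.45 across pachytene, Pdha2 0.097 in t12+/+T43 against earlier cells, Utp14b 0.18 between carriers, Cstf2t -0.10 in t12+/+T43 against later cells and Utp14a 0.021 in t12+/+T43 testes. It gave interactions of 0.18 (Utp14b), 0.019 (Cetn2), 0.18 (Utp14a) and 0.016 (Cstf2). Without both arrays that stood apart, Pdha2 was 0.087 and Cstf2t 0.11 in Ttf+/+T43H, Pdha1 -0.010 in t12+/+T43, Pdha2 -0.092 and Cetn2 -0.031 between carriers, Cstf2t 0.18 in Ttf+/+T43H against later cells, and the Utp14a interaction 0.51. Pdha2 minus Pdha1 became 0.56 and 0.0051 against earlier cells (Ttf+/+T43H, t12+/+T43) and -0.55 between carriers, and Cstf2t minus Cstf2 became -0.043 there.

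With an array left out, values that turned ranged as follows. Across pachytene Pdha2 ran from -0.020 to 0.36. In Ttf+/+T43H against earlier cells Pdha2 ran from -1.60 to 0.087, Cstf2t from -0.37 to 0.11, Pdha1 from -0.47 to 0.050 and Cstf2 from -0.64 to 0.15. In t12+/+T43 Pdha2 ran from -0.070 to 0.042, Pdha1 from -0.010 to 0.34 and Cstf2 from -0.50 to 0.046. Between carriers Pdha2 ran from -0.097 to 1.59, Utp14b from -0.13 to 0.052, Cetn2 from -0.37 to 0.35, Utp14a from -0.51 to 0.84 and Cstf2 from -0.32 to 0.47. Against later cells Cstf2t ran from -0.30 to 0.18 (Ttf+/+T43H) and Pdha2 from -0.37 to 0.0096 (t12+/+T43). In testes Cetn2 ran from -0.093 to 0.010 (Ttf+/+T43H) and Utp14b from -0.14 to 0.082 between carriers. Interactions ran from -0.13 to 0.085 (Utp14b), -0.56 to 0.15 (Cetn2), -0.15 to 0.37 (Pdha1), -0.60 to 0.75 (Utp14a) and -0.52 to 0.27 (Cstf2).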
